A study of Mus musculus with 24 samples.

Results

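The control arm of an RNA interference experiment in RN2 cells was examined, by comparing cells that carried the control hairpin shRen713 after 4 days of doxycycline with the same clones before doxycycline. RN2 is a cultured mouse acute myeloid leukaemia line with the genotype Mll-Af9; NrasG12D, that is, a fusion of the histone methyltransferase gene Mll with Af9 together with an activated Ras (the substitution is G12D). The whole series held 24 RNA libraries, 8 for each of 3 hairpins, and the control arm was its 8 shRen713 libraries, chosen by their labels. They came from 2 clonal isolates, clone 2 and clone 7, with 2 libraries of each clone at day 0 (untreated) and 2 at day 4 (doxycycline). The other hairpins, shOgdh346 and shOgdh2081, target Ogdh, and each was likewise read in 2 clones at both days.

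All clones had been transduced with a retroviral vector from which doxycycline switches on the hairpin, and all grew in RPMI with 10% serum. shRen713 is directed against a luciferase that mouse cells do not have. Between the days, the control arm differs by doxycycline, the making of a hairpin with no cellular target and 4 further days of culture. These 3 cannot be told apart, because no library holds doxycycline without a hairpin or 4 days without doxycycline. Nor can they be told from any difference in harvest or handling between the libraries of the days. Each clone is a single isolate, and the labels do not say whether the 2 libraries of a clone and day came from separate cultures, so the spread between them may be technical. In bulk RNA, fewer cells of a type and less RNA per cell cannot be told apart.

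Doxycycline is known to bind the mitochondrial ribosome as well as the engineered transactivator, and hairpins are cut by the microRNA machinery, which makes genes of mitochondrial translation, the integrated stress response, small RNA processing and interferon sensing natural places to look in such a control. In cultured leukaemia cells, immediate early genes and the nutrient-sensing gene Txnip are known to move within minutes to hours of feeding, handling or glucose supply, while granule genes such as Mpo mark the promyelocytic stage of the granulocyte lineage.

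The 8 libraries held 7275680 to 13232745 counts assigned to genes and 16955 to 18457 genes with at least 1 count. Levels below are in CPM, the counts of a gene relative to the library's total after TMM scaling, and each pair of library values gives replicate 1 before replicate 2 of the labels. The myeloid identity of the cells was read from 11 genes, all of which were detected, with a summed level of 7458 to 8691 CPM at day 0 and 11160 to 12470 CPM at day 4. Most of the difference between the days came from Mpo and Ctsg, whose values are given below. The set did not rise as a whole. Cd33 and Myb were also higher at day 4 in both clones, while Ptprc and Meis1 were lower. The 6 B cell markers summed to at most 0.858 CPM in any library, with Pax5 and Ebf1 at 0. The 5 T and natural killer cell markers summed to at most 2.22 CPM, with Cd3g, Cd3e and Ncr1 at 0. Markers of 3 further lineages were present at low levels. The 5 mast cell and eosinophil markers, with Fcer1a and Epx at 0, summed to 19.2 to 28.6 CPM at day 0 and 10.6 to 19.1 CPM at day 4, mostly from the basophil protease gene Mcpt8. The 8 stromal markers, with Col3a1, Col1a2 and Krt8 at 0, summed to 6.39 to 27.9 CPM at day 0 and 5.44 to 23.2 CPM at day 4, mostly from Pdgfrb. The 3 megakaryocyte markers, with Pf4 at 0, summed to 3.43 to 10.6 CPM and 1.697 to 7.46 CPM, mostly from Itga2b.

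The first principal component of the 8 libraries carried 56.6% of the variance and separated clone 2 from clone 7. The second carried 20.5% and ran from replicate 1 of day 0, at -41.5 in clone 2 and -35.1 in clone 7, through replicate 2 of day 0, at -7.08 and -8.28, to the 4 day 4 libraries, at 21.4 to 24.4. The 2 day 0 libraries of a clone thus lay farther apart than the 2 day 4 libraries of a clone. Pearson's r across genes was 0.986 and 0.989 between day 0 replicates and 0.993 and 0.992 between day 4 replicates. For this reason the comparison was made with both day 0 replicates together and against each of them alone. Counts and values below are for both together unless a replicate is named.

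**Figure D1:**
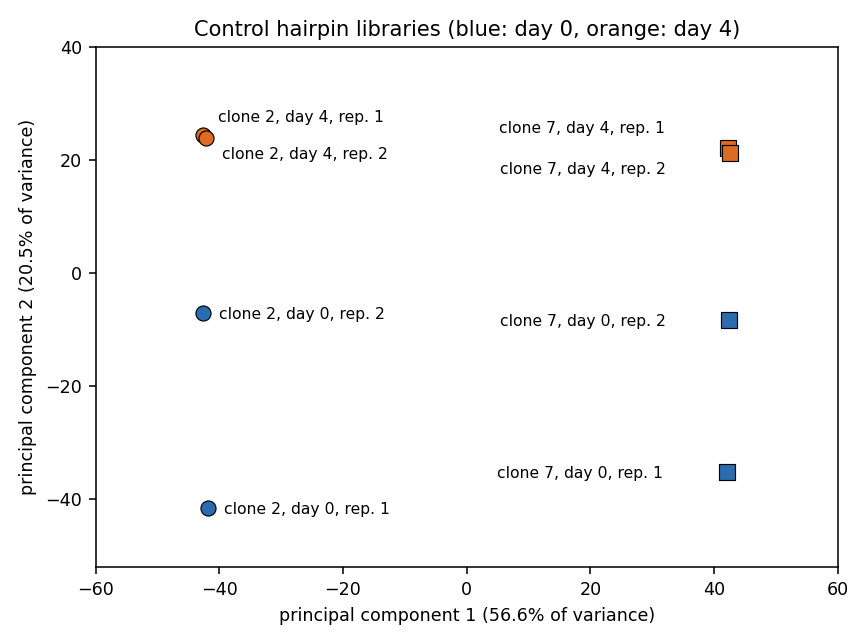
First 2 principal components of log2 CPM in the 8 control hairpin libraries (circles, clone 2; squares, clone 7; blue, day 0; orange, day 4). The clones separate along the horizontal axis, and along the vertical axis the day 0 libraries of replicate 2, at -7.08 and -8.28, lie between those of replicate 1 and the day 4 libraries.

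Of 14249 genes tested, 980 differed between day 4 and day 0 at an adjusted p under 0.05 (6.88%). Of these, 633 rose (4.44%) and 347 fell (2.44%). These shares over all genes are the ones to set beside the counts of every gene list below, where both day 0 replicates are used together. Most changes were small, since 116 of the genes that rose and 117 of those that fell moved by more than 2-fold, and the median log2 change was 0.61 among the former and -0.61 among the latter. In these called genes the median was 0.58 in clone 2 and 0.63 in clone 7 for genes that rose and -0.60 and -0.62 for genes that fell. Day 4 values lay above both day 0 values of the same clone in all 8 library comparisons for 610 of the 633, and below them in all 8 for 322 of the 347. The genes were called on these same libraries with clone as block, so such agreement is favoured by the call and is no separate support for it.

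The number called depended on which day 0 libraries were used. In the fits to a single replicate, the other was left out at day 0 of all 3 hairpins, so the estimate of spread changed as well as the start. A lost call is therefore not always a smaller change. Ctsg, for example, changed by 0.63 with both replicates and by 0.67 against replicate 2 alone, where it was not called. Against replicate 1 alone, 1251 genes rose (8.96%) and 727 fell (5.21%) of 13958 tested, whereas against replicate 2 alone 84 rose (0.628%) and 38 fell (0.284%) of 13383. Of the 971 called genes that could be set against both, 970 kept their direction against replicate 2, and 892 moved farther against replicate 1. Replicate 2 is among the libraries on which these genes were called, so the shared direction is not independent of the call. The median change of the genes that rose was 0.81 against replicate 1 and 0.42 against replicate 2, and that of the genes that fell was -0.75 and -0.42. In both clones, replicate 2 of day 0 lay between replicate 1 and the day 4 mean for 816 of the 980 called genes (83.3%), compared with 3825 of all 14249 genes tested (26.8%). The genes called in all 3 comparisons numbered 109, of which 76 rose and 33 fell. A gene described below as having risen or fallen was not called against replicate 2 alone unless this is stated.

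Leaving out a clone removed nearly all calls, since 10 genes rose and 7 fell without clone 2, and 6 rose and 2 fell without clone 7. Without the replicate 1 library of day 0, 160 rose and 79 fell when it was that of clone 2, and 125 and 64 when it was that of clone 7. Without replicate 2 of day 0 in clone 2, 901 rose and 575 fell.

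**Figure D2:**
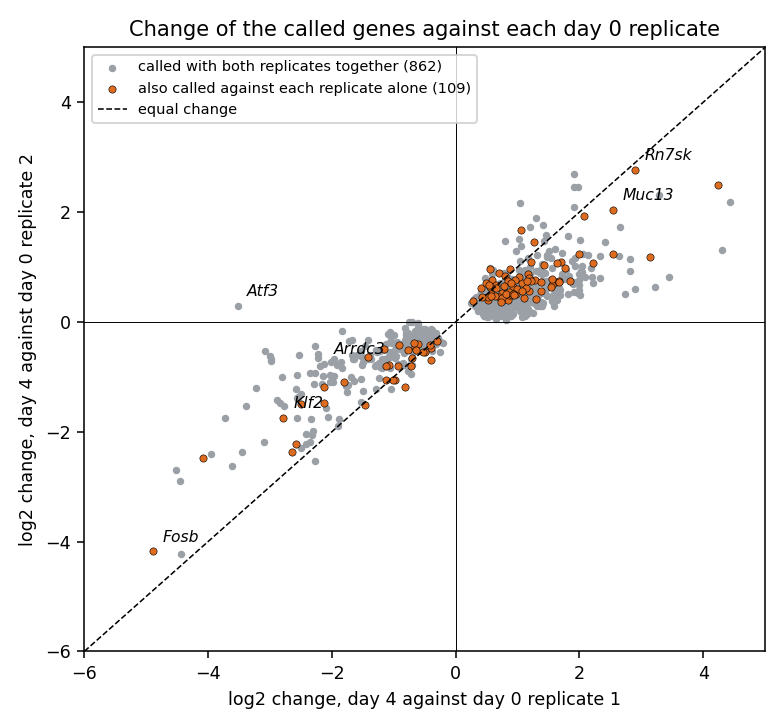
Log2 change at day 4 against replicate 1 of day 0 (horizontal) and against replicate 2 (vertical) for the 971 called genes with both values; orange points are the 109 also called against each replicate alone and the dashed line marks equal change. Most points lie closer to the horizontal axis than the dashed line does, Atf3 lies on the other side of the horizontal axis, and Fosb, Klf2, Muc13 and Rn7sk stay far from 0 on both axes.

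Ogdh, the gene that the other hairpins target, was at 202 and 215 CPM in clone 2 and 245 and 249.6 CPM in clone 7 at day 0 and at 206 and 206 CPM in clone 2 and 237 and 253 CPM in clone 7 at day 4. The ranges of the 2 days overlapped in each clone, and the change was -0.02 ± 0.15 log2 (SE; adjusted p = 0.962), compared with -1.66 with shOgdh346 and -1.89 with shOgdh2081.

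Of 76 mitochondrial ribosomal protein genes tested, 1 rose and none fell (1.32% called, beside 6.88% of all genes), with a median log2 change of -0.09 beside -0.01 over all genes tested. The gene that rose was Mrpl44, a protein of the large mitochondrial ribosomal subunit, which went from 60.98 to 73.9 CPM at day 0 to 88.2 to 92.9 CPM at day 4, with no overlap (0.44 ± 0.08; adjusted p = 0.0157). Of 74 nuclear genes for respiratory chain subunits, 1 fell (1.35% called), Atp5l, a membrane subunit of ATP synthase, with a log2 change of -0.76 ± 0.14 (adjusted p = 0.0162) and of -0.22 against replicate 2 alone (adjusted p = 0.541), and the median was -0.12. Among 9 transcripts of mitochondrial DNA, the large ribosomal RNA mt-Rnr2 was the gene that fell. It was at 399 and 229 CPM in clone 2 and 409.9 and 262 CPM in clone 7 at day 0 and at 211 and 323 CPM in clone 2 and 252 and 195 CPM in clone 7 at day 4. Its day 4 values lay below the replicate 1 values of day 0 and overlapped those of replicate 2, and the change of -0.43 ± 0.10 (adjusted p = 0.0421) was -0.00 against replicate 2 alone. None of 15 mitochondrial chaperone and protease genes passed the test, with changes from -0.305 for Phb2 to 0.24 for Dnaja3.

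Targets of ATF4, the transcription factor of the integrated stress response, did not move in one direction. Of 38 tested, 2 rose and 2 fell (10.5% called, beside 6.88% of all genes), with a median of -0.10. Ddit4, an inhibitor of the growth kinase mTORC1, went from 12.5 and 16.4 CPM in clone 2 and 14 and 17.3 CPM in clone 7 at day 0 to 24.3 and 23.8 CPM in clone 2 and 25.3 and 25.4 CPM in clone 7 at day 4. The days did not overlap (0.73 ± 0.11; adjusted p = 0.01). Cebpg, the dimer partner of ATF4, rose by 0.84 ± 0.14 (adjusted p = 0.0148). Atf3, a stress-induced factor, was at 4.31 and 0.378 CPM in clone 2 and 8.34 and 0.49 CPM in clone 7 at day 0 and at 0.21 and 0.403 CPM in clone 2 and 0.742 and 0.807 CPM in clone 7 at day 4. Only the 2 replicate 1 libraries of day 0 were high, and the change of -2.80 ± 0.55 (adjusted p = 0.0252) became 0.29 against replicate 2 alone (adjusted p = 0.852). Ppp1r15a, which ends the response by dephosphorylating the initiation factor eIF2, fell, with a log2 change of -0.83 ± 0.20 (adjusted p = 0.0421) and of -0.37 against replicate 2 alone (adjusted p = 0.474). None of 23 genes of the endoplasmic reticulum unfolded protein response was called, and the chaperone Dnajb9, for example, was at 0.39 ± 0.11 (adjusted p = 0.0602). Of 18 heat shock genes, 1 rose, the HSP90 co-chaperone Chordc1 (0.34 ± 0.07; adjusted p = 0.0294).

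The machinery that makes and uses small RNAs showed no called gene among 13 tested, with a median of 0.11. Ago4, an Argonaute protein that holds small RNAs, had the highest value, at 0.45 ± 0.13 (adjusted p = 0.0702). Of 37 interferon-stimulated and RNA-sensing genes, 3 rose and none fell (8.11% called, near the 6.88% of all genes), with a median of 0.07. Stat2, a signalling factor below the type I interferon receptor, was at 37.4 and 39.96 CPM in clone 2 and 37.3 and 44.1 CPM in clone 7 at day 0 and at 67.4 and 70.2 CPM in clone 2 and 63.5 and 73.5 CPM in clone 7 at day 4. All day 4 libraries were above all day 0 libraries, and the change was 0.80 ± 0.08 (adjusted p = 0.00273), with 0.70 against replicate 2 alone (adjusted p = 0.0182). Trim30a, an interferon-induced regulator of Toll-like receptor signalling, rose by 0.59 ± 0.10 (adjusted p = 0.0144) and was not called against replicate 2 alone (adjusted p = 0.155).

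The 12 largest falls were led by the immediate early gene Fosb and by Klf2 and Klf11, of a family of zinc finger proteins that bind GC-rich promoters. Of 35 immediate early genes tested, 6 fell and 1 rose (20% called, beside 6.88% of all genes), with a median of -0.42. Against replicate 2 of day 0 alone 2 fell and none rose, where 0.284% of all genes fell, and the median was -0.27. Promoter stretches of 5 genes that fell are shown because they hold letters known from such promoters. In Fosb, Klf2, Dusp1 and Ppp1r15a these are the sequence bound by cyclic AMP response element factors, whole or as its core, and in Txnip the letters CACG with a second CACG 7 bases on, of the kind read by the glucose-sensing factor MondoA. The stretches below are from RefSeq promoters of build GRCm38.p6, written 5′ to 3′ in the direction of the gene, with the matching letters in capitals.
Fosb, chr7:19310073-19310133, minus strand: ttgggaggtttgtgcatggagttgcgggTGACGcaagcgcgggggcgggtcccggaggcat
Klf2, chr8:72318812-72318853, plus strand: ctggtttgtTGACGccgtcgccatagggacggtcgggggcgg
Dusp1, chr17:26508582-26508641, minus strand: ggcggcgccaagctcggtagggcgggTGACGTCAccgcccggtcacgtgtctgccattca
Ppp1r15a, chr7:45526269-45526306, minus strand: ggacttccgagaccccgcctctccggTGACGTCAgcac
Txnip, chr3:96557850-96557908, plus strand: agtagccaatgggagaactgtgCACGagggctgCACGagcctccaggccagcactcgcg
These matches begin 60, 241, 143, 12 and 85 bases before the start of transcription. TGACGTCA, searched on both strands in the 250 bases before the start, was in 1.55% of all 32851 promoters, its core TGACG (which the longer motif contains) in 17.8% and the CACG pair in 0.511%. Promoters were found for 213 of the 347 genes that fell, some genes having several. Over these 276 promoters the shares were 2.17%, 25% and 1.09%, beside 2.61%, 26.2% and 0.859% over the 12682 promoters of all genes tested. In the immediate early list, whatever the change of the gene, 48.4% of 31 promoters held TGACG, a difference that was not tested. A match is a stretch of letters and no proof of binding.

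Fosb, a partner of Jun in the AP-1 factor, was at 4.03 and 3.03 CPM in clone 2 and 15.2 and 8.46 CPM in clone 7 at day 0 and at 0.315 and 0.403 CPM in clone 2 and 0.318 and 0.115 CPM in clone 7 at day 4, where all 4 libraries together held 11 counts against 321 at day 0. No day 4 library came near a day 0 library, and the change was -4.64 ± 0.49 (adjusted p = 0.00314), or -4.18 against replicate 2 alone (adjusted p = 0.00977). Klf2, which in blood cells is associated with quiescence, was at 6.67 and 2.77 CPM in clone 2 and 16.4 and 8.58 CPM in clone 7 at day 0 and at 0.841 and 1.11 CPM in clone 2 and 1.91 and 2.77 CPM in clone 7 at day 4. Within each clone the days did not overlap, and the change was -2.42 ± 0.22 (adjusted p = 0.00215), with -1.75 against replicate 2 alone (adjusted p = 0.0255).

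Dusp1, a phosphatase that switches off MAP kinases, was at 13.1 and 6.43 CPM in clone 2 and 10.7 and 5.15 CPM in clone 7 at day 0 and at 4.84 and 5.95 CPM in clone 2 and 2.86 and 3.69 CPM in clone 7 at day 4. Within each clone the days did not overlap. Its change was -1.10 ± 0.19 (adjusted p = 0.0144), and -0.44 against replicate 2 alone (adjusted p = 0.436). The related Dusp2 fell (-0.75 ± 0.14; adjusted p = 0.0177), as did Etv4, an ETS factor below Ras signalling (-0.41 ± 0.08; adjusted p = 0.024). Fos, Jun and Egr1, the best known members, did not pass. The log2 change was -0.44 ± 0.35 for Fos (adjusted p = 0.503), -1.66 ± 0.37 for Jun (adjusted p = 0.0581) and, for Egr1, -2.12 ± 0.60 (adjusted p = 0.124).

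Myc was the immediate early gene that rose. It was at 85.8 and 177 CPM in clone 2 and 119 and 234 CPM in clone 7 at day 0 and at 199 and 202 CPM in clone 2 and 259 and 274 CPM in clone 7 at day 4. In each clone, replicate 1 of day 0 stood below the other 3 libraries by a wide gap. The change of 0.64 ± 0.10 (adjusted p = 0.00847) was 0.18 against replicate 2 alone (adjusted p = 0.289).

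**Figure D3:**
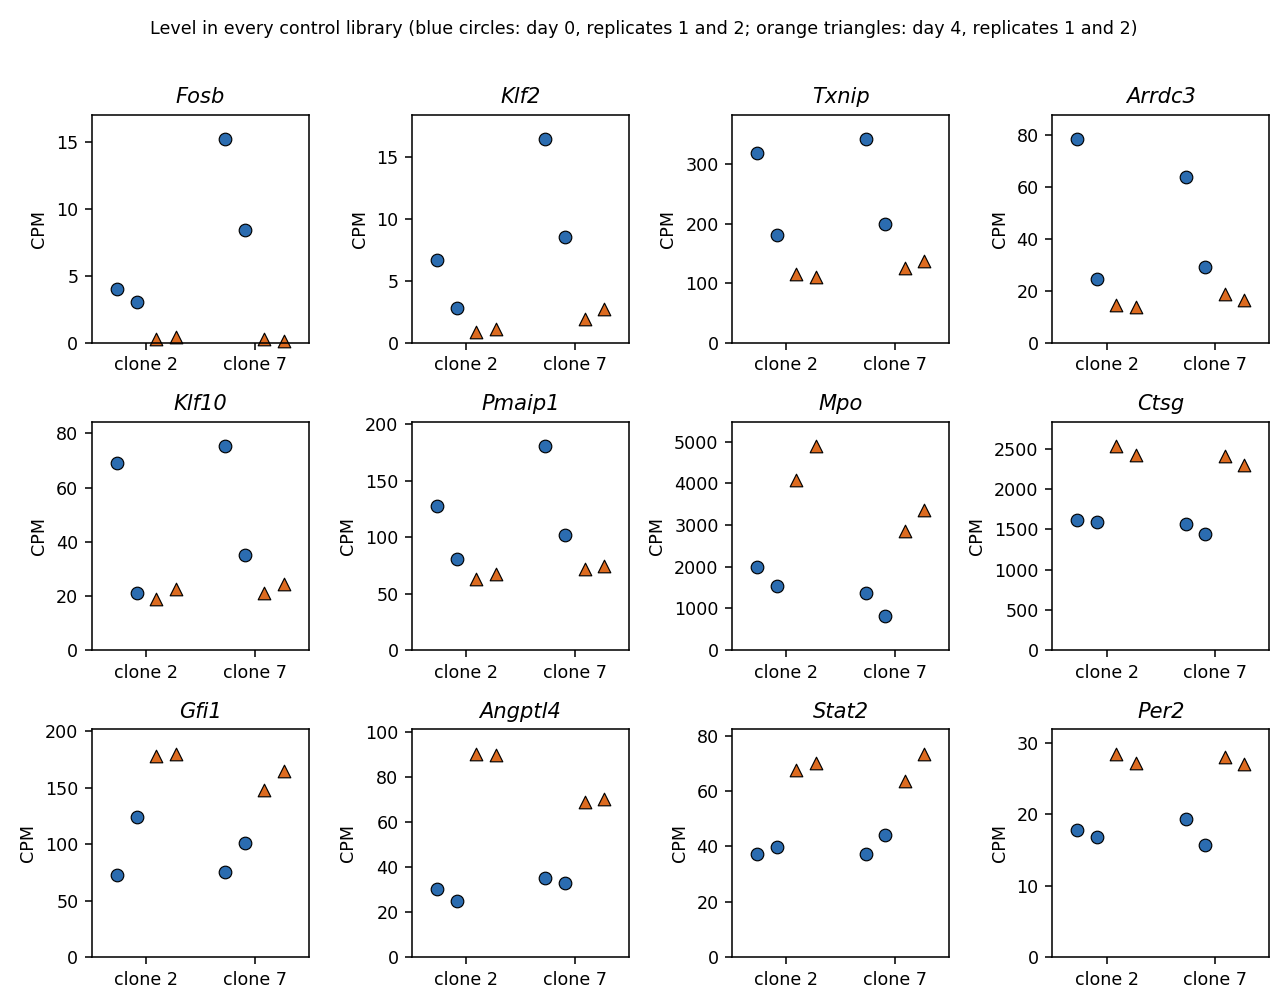
CPM of 12 genes in each control library (blue circles, day 0; orange triangles, day 4; within a clone, replicate 1 stands left of replicate 2; each axis starts at 0). For Txnip, Arrdc3, Klf10 and Pmaip1 the replicate 1 libraries of day 0 are the highest by a wide gap, while for Mpo, Angptl4, Stat2 and Per2 both day 0 replicates lie below every day 4 library of the same clone.

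Among 21 genes of the TXNIP, arrestin and nutrient response list, 3 fell and 1 rose (19% called, beside 6.88% of all genes) and the median was 0.11. Txnip, which binds thioredoxin and restrains glucose uptake, was at 319 and 182 CPM in clone 2 and 343 and 199.9 CPM in clone 7 at day 0 and at 116 and 111 CPM in clone 2 and 126 and 138 CPM in clone 7 at day 4. Each day 4 library was below each day 0 library, and the change was -1.12 ± 0.10 (adjusted p = 0.00215), with -0.64 against replicate 2 alone (adjusted p = 0.0166). Arrdc3, an arrestin of the same family that also lowers glucose uptake, went from 78.5 and 24.7 CPM in clone 2 and 63.7 and 29.3 CPM in clone 7 at day 0 to 14.4 and 13.8 CPM in clone 2 and 18.98 and 16.6 CPM in clone 7 at day 4. The days did not overlap in either clone, yet the change of -1.67 ± 0.15 (adjusted p = 0.00215) was -0.76 against replicate 2 alone (adjusted p = 0.0642). Klf10, a transforming growth factor beta response gene, fell (-1.25 ± 0.13; adjusted p = 0.00288), as did Klf11, its close relative (-1.83 ± 0.28; adjusted p = 0.0124), and neither was called against replicate 2 alone (adjusted p = 0.299 and 0.147). Tsc22d3, a glucocorticoid-induced leucine zipper protein, rose by 0.56 ± 0.12 (adjusted p = 0.0275).

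Other genes among the 12 largest falls were Hist1h1c, a linker histone gene (-1.58 ± 0.21; adjusted p = 0.00517), Cpeb2, a regulator of messenger RNA translation (-1.20 ± 0.12; adjusted p = 0.00268), Clec4d, a C-type lectin receptor of myeloid cells (-1.16 ± 0.19; adjusted p = 0.0162), Zc3h12c, of a family of RNA-degrading zinc finger proteins (-1.14 ± 0.18; adjusted p = 0.0121), and Fam43a, Ttc39aos1 and Rnf225. Ttc39aos1 is an antisense transcript, and whether the counting used strand is not given in the sources used here, so its reads cannot be told from those of the gene it overlaps. Fam43a was called against each day 0 replicate, at -1.80 and -1.09. So were Sik1, a salt-inducible kinase (-1.005 ± 0.14; -0.80 against replicate 2 alone, adjusted p = 0.0435), Acsbg1, an acyl-CoA synthetase (-1.10 ± 0.15; -1.07 against replicate 2 alone, adjusted p = 0.0234) and Angpt1, a ligand of the Tie2 receptor (-1.02 ± 0.16; -1.06 against replicate 2 alone, adjusted p = 0.0442). Dab2ip, a Ras GTPase-activating protein, and Il20rb, a cytokine receptor chain, completed this set with -1.04 ± 0.19 and -1.004 ± 0.19.

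Cirbp, a cold-inducible RNA-binding protein, was at 109.6 and 85.6 CPM in clone 2 and 105 and 87.04 CPM in clone 7 at day 0 and at 51.1 and 55.9 CPM in clone 2 and 39.6 and 54.5 CPM in clone 7 at day 4. The days did not overlap, the change was -0.96 ± 0.13 (adjusted p = 0.0071) and it stood against replicate 2 alone (-0.79; adjusted p = 0.0166). It was chosen for mention after its values were seen.

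Genes of the myeloid lineage moved in both directions. Of 17 primary granule genes, 2 rose and none fell (11.8% called, beside 6.88% of all genes), with a median of 0.14. Mpo, myeloperoxidase, was at 1985 and 1549 CPM in clone 2 and 1365 and 819 CPM in clone 7 at day 0 and at 4072 and 4890.5 CPM in clone 2 and 2866 and 3352 CPM in clone 7 at day 4. All day 4 libraries were above all day 0 libraries, and the change was 1.39 ± 0.26 (adjusted p = 0.0281). Against replicate 2 alone it was larger, at 1.72, but not called (adjusted p = 0.136). Ctsg, the granule protease cathepsin G, was at 1615 and 1590.4 CPM in clone 2 and 1572 and 1442 CPM in clone 7 at day 0 and at 2529 and 2422 CPM in clone 2 and 2406 and 2300.5 CPM in clone 7 at day 4, again without overlap (0.63 ± 0.15; adjusted p = 0.0413; 0.0577 against replicate 2 alone). The neighbouring granule proteases Elane and Prtn3 did not pass, at 0.14 ± 0.16 (adjusted p = 0.641) and 0.10 ± 0.19 (adjusted p = 0.808).

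No gene of 42 in the secondary and tertiary neutrophil granule list was called, with a median of -0.00 and changes from -1.99 for Retnlg to 2.31 for Fpr1. The same list had a median of 3.12 with shOgdh346 and 2.83 with shOgdh2081. Ltf, lactoferrin, was at 1.81 and 4.03 CPM in clone 2 and 16.1 and 13.9 CPM in clone 7 at day 0 and at 1.89 and 3.53 CPM in clone 2 and 16.6 and 22.03 CPM in clone 7 at day 4. The ranges overlapped (0.22 ± 0.62; adjusted p = 0.875), and the Ogdh hairpins minus the control gave a difference of 4.604 ± 0.74 (adjusted p = 0.00934). Camp, a granule antimicrobial peptide, was at 0.13 ± 0.18 (adjusted p = 0.701), and the same difference was 2.49 ± 0.21 (adjusted p = 9.23e-05). Of 36 monocyte and macrophage genes, 1 rose and 1 fell (5.56% called, near the 6.88% of all genes). These were Fcgr2b, the inhibitory Fc receptor (0.34 ± 0.08; adjusted p = 0.038), and Apoe, a lipid carrier (-0.67 ± 0.16; adjusted p = 0.0395).

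Of 28 myeloid transcription factors, 4 rose and 3 fell (25% called, beside 6.88% of all genes). Gfi1, a repressor needed for granulocyte formation, was at 73.1 and 124 CPM in clone 2 and 75.7 and 101 CPM in clone 7 at day 0 and at 178 and 180 CPM in clone 2 and 148 and 164 CPM in clone 7 at day 4. Replicate 1 of day 0 was lowest in each clone, no day 4 library overlapped day 0, and the change of 0.85 ± 0.09 (adjusted p = 0.00273) was 0.57 against replicate 2 alone (adjusted p = 0.0346). Cebpe, the factor of the promyelocyte to myelocyte step, rose by 0.45 ± 0.08 (adjusted p = 0.0163) and stood against replicate 2 alone (adjusted p = 0.042). Cebpd rose by 0.64 ± 0.10 (adjusted p = 0.0119), as did Cebpg above.

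Gata2, a factor of stem and progenitor cells and of the mast cell lineage, was at 83.9 and 77.3 CPM in clone 2 and 71.7 and 70.98 CPM in clone 7 at day 0 and at 56.6 and 56.2 CPM in clone 2 and 41.1 and 36.6 CPM in clone 7 at day 4. Every day 4 library was below every day 0 library, both day 0 replicates were alike, and the change was -0.69 ± 0.10 (adjusted p = 0.00881; -0.66 and 0.0242 against replicate 2 alone). Id2, an inhibitor of helix-loop-helix factors, fell (-0.64 ± 0.15; adjusted p = 0.0343), as did Runx3 (-0.34 ± 0.08; adjusted p = 0.0443).

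Of 28 leukaemia self-renewal factors, 3 fell and 1 rose (14.3% called, beside 6.88% of all genes), with a median of -0.09. Those that fell were Runx2 (-0.56 ± 0.07; adjusted p = 0.00408), Mef2c, a factor of leukaemia stem cells in this disease model (-0.44 ± 0.09; adjusted p = 0.023), and Hmgb3 (-0.45 ± 0.10; adjusted p = 0.0386). Men1, the menin scaffold that MLL fusions bind, rose by 0.37 ± 0.09 (adjusted p = 0.0362). The MLL fusion targets Hoxa9 and Meis1 did not pass, at -0.23 ± 0.09 (adjusted p = 0.184) and -0.26 ± 0.09 (adjusted p = 0.113), nor did Myb, at 0.35 ± 0.10 (adjusted p = 0.0737).

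**Figure D4:**
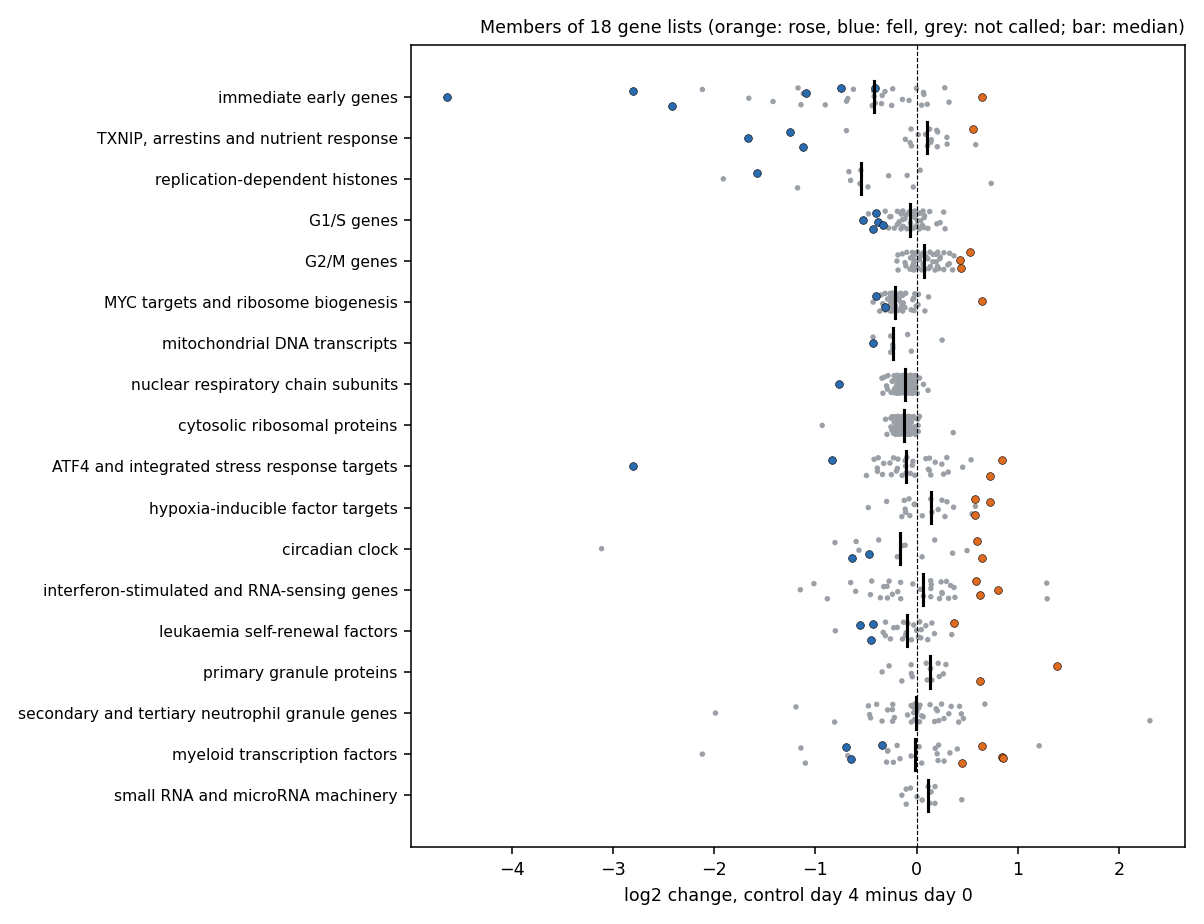
Log2 change of the tested members of 18 gene lists in the control hairpin cells, day 4 minus day 0 (orange, rose; blue, fell; grey, not called; black bar, median of the list). The members of the respiratory chain and ribosomal protein lists crowd around 0, with medians of -0.12 each, and the immediate early genes reach from -4.64 for Fosb to 0.64 for Myc.

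Of 23 targets of hypoxia-inducible factors, 3 rose and none fell (13% called, beside 6.88% of all genes), with a median of 0.14. Against replicate 1 alone 5 rose and 1 fell, with a median of -0.06, where 8.96% of all genes rose and 5.21% fell. Against replicate 2 alone 3 rose and none fell, with a median of 0.25, where 0.628% of all genes rose. Vegfa, the vascular growth factor, was at 56.8 and 48.02 CPM in clone 2 and 73.7 and 63.7 CPM in clone 7 at day 0 and at 87.04 and 80.8 CPM in clone 2 and 95.9 and 99.3 CPM in clone 7 at day 4. In each clone both day 4 libraries were higher (0.58 ± 0.08; adjusted p = 0.00608; 0.0127 against replicate 2 alone). Pfkfb4, which sets the level of an activator of glycolysis, rose by 0.58 ± 0.10 (adjusted p = 0.0126), and Ddit4 is the third. The 3 that rose against replicate 2 alone were Vegfa, Bnip3, a mitophagy receptor (1.09; adjusted p = 0.0238), and Pdk1, a kinase that restrains pyruvate dehydrogenase (0.76; adjusted p = 0.0113).

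Of 23 glycolysis genes, Pfkfb4 was the 1 called, with a median of -0.07. Against replicate 1 alone 3 rose and 2 fell, with a median of -0.23, where 8.96% of all genes rose and 5.21% fell. Against replicate 2 alone 3 rose and none fell, with a median of 0.13, where 0.628% of all genes rose and 0.284% fell. Those 3 were Pdk1, the phosphofructokinase gene Pfkl (0.60; adjusted p = 0.0117) and the lactate exporter gene Slc16a3 (0.71; adjusted p = 0.0243), and Pfkfb4 was not among them (adjusted p = 0.0605). With both replicates together Bnip3, Pdk1, Pfkl and Slc16a3 were not called, at 0.30 ± 0.14, 0.28 ± 0.08, 0.15 ± 0.07 and -0.02 ± 0.16, and they were chosen after their values were seen.

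Angptl4, a lipase inhibitor known to answer to fatty acids and to low oxygen, was among the 12 largest rises. It went from 30.4 and 24.96 CPM in clone 2 and 35.1 and 32.7 CPM in clone 7 at day 0 to 90.3 and 89.6 CPM in clone 2 and 68.9 and 70.2 CPM in clone 7 at day 4 without overlap (1.35 ± 0.16; adjusted p = 0.00438; 1.46 against replicate 2 alone, adjusted p = 0.0308).

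None of 25 cholesterol synthesis genes and none of 18 fatty acid synthesis genes was called, with medians of 0.07 and -0.05. The sterol transporter Stard4 was at 0.40 ± 0.11 (adjusted p = 0.0577) and Fasn, fatty acid synthase, at -0.29 ± 0.12 (adjusted p = 0.172). Of 10 cholesterol efflux genes, Apoe was the one that fell.

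In the NRF2 and thioredoxin list of 25 genes, 1 rose and 1 fell (8% called, near the 6.88% of all genes). Nfe2l2, which encodes NRF2 itself, rose by 0.64 ± 0.08 (adjusted p = 0.00408). Hmox1, which breaks down heme and is a target of NRF2, was at 33.2 and 26.97 CPM in clone 2 and 30.9 and 23.5 CPM in clone 7 at day 0 and at 18.3 and 19.05 CPM in clone 2 and 18.9 and 18.9 CPM in clone 7 at day 4. All day 4 libraries were lower (-0.63 ± 0.08; adjusted p = 0.00563). Alas1, the first enzyme of heme synthesis, was at 212 and 295 CPM in clone 2 and 289 and 383 CPM in clone 7 at day 0 and at 399.7 and 423 CPM in clone 2 and 538 and 585 CPM in clone 7 at day 4. It rose by 0.74 ± 0.11 (adjusted p = 0.00709; 0.047 against replicate 2 alone), and of 21 iron and heme genes these 2 were the ones called.

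Of 16 circadian clock genes, 2 rose and 2 fell (25% called, beside 6.88% of all genes). Per2 was at 17.8 and 16.9 CPM in clone 2 and 19.4 and 15.7 CPM in clone 7 at day 0 and at 28.5 and 27.2 CPM in clone 2 and 27.99 and 27.1 CPM in clone 7 at day 4. The days did not overlap (0.65 ± 0.10; adjusted p = 0.00769; 0.0234 against replicate 2 alone). Per3 rose by 0.60 ± 0.14 (adjusted p = 0.0353), and 2 repressors of the clock, Cry2 and Nr1d2, fell, with log2 changes of -0.47 ± 0.10 (adjusted p = 0.0258) and -0.64 ± 0.16 (adjusted p = 0.0421). The hour of harvest is not given in the sources used here.

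Of 50 G1/S genes, 5 fell and none rose (10% called, where 2.44% of all genes fell), with a median of -0.07. Of 54 G2/M genes, 3 rose and none fell (5.56% called, where 4.44% of all genes rose), with a median of 0.07. Against replicate 1 alone, 13 G2/M genes rose and none fell, with a median of 0.18, where 8.96% of all genes rose. In the same comparison 7 G1/S genes fell and 1 rose, where 5.21% of all genes fell. Against replicate 2 alone no gene of either list was called, with medians of -0.08 for G1/S and -0.00 for G2/M. With both replicates together, those that fell were Dtl, a ubiquitin ligase subunit that removes the licensing factor Cdt1 (-0.53 ± 0.11; adjusted p = 0.0254), Cdt1 itself (-0.43 ± 0.10; adjusted p = 0.0403), Rrm2, a ribonucleotide reductase subunit (-0.33 ± 0.07; adjusted p = 0.0303), cyclin E1 (Ccne1, -0.40 ± 0.09; adjusted p = 0.0322) and the DNA polymerase alpha subunit Pola1 (-0.38 ± 0.09; adjusted p = 0.0333). The ones that rose were the mitotic spindle and cytokinesis genes Kif20b (0.43 ± 0.10), Ckap2l (0.52 ± 0.12) and Anln (0.44 ± 0.11). Against replicate 2 alone the change was -0.26 for Dtl and 0.16 for Kif20b.

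In the list of 52 MYC targets and ribosome biogenesis genes, Myc itself rose and the nucleolar proteins Nol6 (-0.40 ± 0.09; adjusted p = 0.0387) and Noc2l (-0.31 ± 0.08; adjusted p = 0.0426) fell. The median was -0.21. None of 76 cytosolic ribosomal protein genes was called, with a median of -0.12. Of 13 replication-dependent histone genes tested, Hist1h1c fell and the median was -0.55, or -0.12 against replicate 2 alone. These libraries were made from polyadenylated RNA, which replication-dependent histone messages mostly lack.

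Among 26 p53 targets, Pmaip1 fell and Polk rose. Pmaip1, the death-promoting BCL2 family protein NOXA, was at 127 and 80.5 CPM in clone 2 and 180.2 and 102 CPM in clone 7 at day 0 and at 62.9 and 67.4 CPM in clone 2 and 72.1 and 74.7 CPM in clone 7 at day 4. Replicate 1 of day 0 was highest in each clone (-0.85 ± 0.10; adjusted p = 0.0037; 0.066 against replicate 2 alone). It was the 1 called gene of 15 in the BCL2 family. Polk, a translesion DNA polymerase, rose by 0.46 ± 0.11 (adjusted p = 0.0437).

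Of 20 SOCS, PIM and STAT genes, 2 rose, Stat2 among them, and 1 fell, the survival kinase Pim1 (-1.04 ± 0.15; adjusted p = 0.00673). Of 27 cytokine receptor genes, the tumour necrosis factor receptors Tnfrsf1a (0.32 ± 0.08; adjusted p = 0.0418) and Tnfrsf1b (0.34 ± 0.08; adjusted p = 0.0443) rose. In the lysosome list of 31 genes, the sialidase Neu1 rose by 0.30 ± 0.07 (adjusted p = 0.0435) and Sqstm1, the autophagy receptor p62, fell (-0.50 ± 0.08; adjusted p = 0.0107). No gene was called among 27 NF-kB, interleukin 1 and chemokine genes or among 21 genes of MHC presentation, with medians of -0.11 and -0.17.

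The 12 largest rises held 4 zinc finger genes, Zfp94, Zfp759, Zfp780b and Zfp60, which encode repressors of transcription that mostly sit in gene clusters. Zfp60, at chr7:27731389-27753702 on build GRCm38, was at 4.31 and 10.2 CPM in clone 2 and 4.05 and 8.21 CPM in clone 7 at day 0 and at 18.5 and 19.95 CPM in clone 2 and 19.2 and 19.5 CPM in clone 7 at day 4. Replicate 1 of day 0 was lowest in both clones, all day 4 libraries were higher, and the change was 1.58 ± 0.16 (adjusted p = 0.00273; 1.07 and 0.0219 against replicate 2 alone). Zfp780b, at chr7:27959135-27979171, rose by 1.59 ± 0.18 (adjusted p = 0.0037; 0.022 against replicate 2 alone).

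A search over all symbols that begin with Zfp, Zscan or Zkscan, made after these values were seen, found 65 of 337 tested genes that rose and 6 that fell, or 21.1% called, beside 6.88% of all genes. Their median was 0.25, with 0.33 against replicate 1 and 0.18 against replicate 2 of day 0. The 86 of them on chromosome 7 had 19 that rose and 3 that fell, with a median of 0.26, beside 60 and 30 of all 1162 genes tested there, whose median was 0.00. These genes are close copies of each other, and how reads that fit several copies were counted is not given in the sources used here, so the values of single members are uncertain.

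Muc13, a membrane mucin, was at 2.92 and 3.15 CPM in clone 2 and 0.229 and 0.736 CPM in clone 7 at day 0 and at 14.2 and 14.1 CPM in clone 2 and 2.65 and 2.19 CPM in clone 7 at day 4. The clones differed in level, but in each of them day 4 was higher (2.30 ± 0.31; adjusted p = 0.00601; 0.0404 against replicate 2 alone). Clec2d, a ligand of natural killer cell receptors, was at 0.833 and 4.03 CPM in clone 2 and 1.38 and 5.03 CPM in clone 7 at day 0 and at 9.99 and 12.1 CPM in clone 2 and 9.86 and 9.11 CPM in clone 7 at day 4. Replicate 2 of day 0 thus stood between (1.94 ± 0.20; adjusted p = 0.00273; 1.18 and 0.0414 against replicate 2 alone). Acrbp, a protein known from sperm acrosomes, rose by 1.48 ± 0.22 (adjusted p = 0.0078) and Trim43c by 1.42 ± 0.33 (adjusted p = 0.0383). The rise of Trim43c was mostly in clone 7, from 4.21 and 5.03 CPM at day 0 to 15.4 and 13.1 CPM at day 4. In clone 2 it was at 0.695 and 0.756 CPM at day 0 and at 0.946 and 1.31 CPM at day 4. Its change was 0.64 without clone 7, and it was not called with DESeq2 (adjusted p = 0.104).

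Klf3, a repressor of the KLF family, was at 5.83 and 9.33 CPM in clone 2 and 8.03 and 11.03 CPM in clone 7 at day 0 and at 19.7 and 20.1 CPM in clone 2 and 25.2 and 20.3 CPM in clone 7 at day 4. It rose where Klf2, Klf10 and Klf11 fell (1.34 ± 0.19; adjusted p = 0.00693; 1.07 and 0.0243 against replicate 2 alone). Zswim3 rose by 1.16 ± 0.14 (adjusted p = 0.00394; 0.0276 against replicate 2 alone).

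Rn7sk, the 7SK RNA that holds the elongation factor P-TEFb inactive, was at 0.833 and 0.63 CPM in clone 2 and 0.535 and 0.858 CPM in clone 7 at day 0 and at 1.89 and 11.99 CPM in clone 2 and 4.98 and 1.96 CPM in clone 7 at day 4. The second replicate of clone 2 at day 4 was the highest by far, and the change was 2.84 ± 0.37 (adjusted p = 0.00531). It was also called against replicate 2 alone (2.77; adjusted p = 0.042). 7SK has no poly(A) tail, and the libraries were made from polyadenylated RNA. The summed level of Rn7sk, Lars2 and 4 further transcripts with ribosomal RNA sequence or no poly(A) tail was 392 to 567 CPM at day 0, and at day 4 it was 723 and 2646 CPM in clone 2 and 1361 and 592 CPM in clone 7. Lars2, the mitochondrial leucyl-tRNA synthetase, is part of this sum, so its own values are not independent of it. It was at 107 and 109 CPM in clone 2 and 109 and 149 CPM in clone 7 at day 0 and at 167 and 554 CPM in clone 2 and 308 and 169.9 CPM in clone 7 at day 4. Its change was 1.35 ± 0.16 (adjusted p = 0.00679; 0.143 against replicate 2 alone). Without the second day 4 library of clone 2, the change was 2.00 for Rn7sk (adjusted p = 0.0261) and 0.80 for Lars2 (adjusted p = 0.00254). Lars2 was no longer called without replicate 1 of clone 7 at day 0 (adjusted p = 0.0839), replicate 1 of clone 2 at day 4 (adjusted p = 0.0792) or replicate 1 of clone 7 at day 4 (adjusted p = 0.134). The part of such RNA in the changes of Rn7sk and Lars2 was not tested.

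Of markers of other blood and stromal cells, Ms4a2, Gata2 and Gp1ba were called. None of 7 B cell, 5 T and natural killer cell, 6 dendritic cell or 10 stromal genes tested was called. The wider B cell list of 14 genes, 4 of them at 0, summed to 204 to 260.4 CPM at day 0 and 130 to 176 CPM at day 4, nearly all of it from Ighm, the IgM heavy chain gene (-0.63 ± 0.42; adjusted p = 0.439). In the mast cell, basophil and eosinophil list, Ms4a2, a chain of the IgE receptor, was at 3.75 and 4.54 CPM in clone 2 and 2.601 and 3.43 CPM in clone 7 at day 0 and at 9.99 and 9.77 CPM in clone 2 and 4.56 and 5.77 CPM in clone 7 at day 4 and rose (1.04 ± 0.23; adjusted p = 0.0303), while Gata2 fell. The whole list of 21 genes, 9 of them at 0 in every control library, summed to 177 to 347 CPM at day 0 and 171 to 336 CPM at day 4. Gp1ba, a platelet glycoprotein, fell (-1.26 ± 0.30; adjusted p = 0.038), from a mean of 1.99 CPM at day 0 to 0.826 CPM at day 4. Neither Ms4a2 nor Gp1ba was called with DESeq2 (adjusted p = 0.0608 and 0.156). The erythroid and megakaryocyte list, with 7 of 19 genes at 0, summed to 8.09 to 16.7 CPM at day 0 and 5.51 to 12.2 CPM at day 4. Bcl11b, a T cell factor, was at 3.75 and 10.7 CPM in clone 2 and 0 and 0 CPM in clone 7 at day 0 and at 16.1 and 19.95 CPM in clone 2 and 0 and 0 CPM in clone 7 at day 4. It was detected in clone 2 alone and was not called (1.28 ± 0.31; adjusted p = 0.0577).

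The genes called with the control hairpin were then read in the clones of the Ogdh hairpins, which share no library with the control. Of the 633 that rose with the control, 385 (60.8%) also rose with both Ogdh hairpins, where 23.5% of all genes tested did, and 23 fell with both. Of the 347 that fell, 224 (64.6%) fell with both Ogdh hairpins, where 22.8% of all genes tested did, and 21 rose with both. The excess over all genes was not tested. Day 0 of the Ogdh clones has the same replicate numbers. Against replicate 2 of day 0 alone, 302 of the 633 (47.7%) rose with both Ogdh hairpins beside 22.4% of all genes, and 142 of 338 (42%) fell beside 21.9%.

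Of the 76 genes that rose against each day 0 replicate, 65 rose with both Ogdh hairpins (85.5%, beside 23.5% of all genes tested). The median change of the 76 was 0.80 for the control, 1.04 for shOgdh346 and 0.88 for shOgdh2081. Of the 33 that fell, 22 fell with both (66.7%, beside 22.8% of all genes tested), and the medians of the 33 were -0.96, -0.70 and -0.74. Against replicate 2 of day 0 alone in the Ogdh clones, 57 of the 76 (75%) rose with both, beside 22.4% of all genes. Likewise 20 of the 33 (60.6%) fell with both, beside 21.9%. Slc31a2, a copper transporter, was one of the 76 that rose, chosen after its values were seen. It went from 8.20 and 11.97 CPM in clone 2 and 11.9 and 14.1 CPM in clone 7 at day 0 to 25.3 and 23.1 CPM in clone 2 and 29.6 and 29.2 CPM in clone 7 at day 4 without overlap (1.23 ± 0.11; adjusted p = 0.00215; 0.00977 against replicate 2 alone), and rose by 2.54 and 2.42 with the Ogdh hairpins.

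The size of the change differed between the Ogdh hairpins and the control for 37.7% of all genes tested, for 285 of the 633 that rose (169 of them less positive, or negative, with the Ogdh hairpins) and for 141 of the 347 that fell (80 of them less negative, or positive). The 633 and 347 were chosen by the control change, which is part of the difference, so the choice itself favours these directions. For Klf11, Arrdc3 and Angptl4 no difference was called, with -1.67 for the control and -1.49 and -1.90 for the Ogdh hairpins in the case of Arrdc3 (difference, Ogdh hairpins minus control, -0.03 ± 0.18; adjusted p = 0.922). For Angptl4 the difference was 0.09 ± 0.19 (adjusted p = 0.755) and for Klf11 0.01 ± 0.34 (adjusted p = 0.983).

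Mpo rose with the control, while its change was -2.05 with shOgdh346 and -0.09 with shOgdh2081, a difference of -2.46 ± 0.32 (adjusted p = 0.00142). Clec4d fell with the control (-1.16) and rose by 1.43 and 1.19 with the Ogdh hairpins, a difference of 2.46 ± 0.23 (adjusted p = 0.000212). Hmox1 likewise fell with the control and rose with the Ogdh hairpins, by 2.12 and 1.84 (difference 2.604 ± 0.10; adjusted p = 3.59e-06), and so did Bach1, the repressor of Hmox1, at -0.52 ± 0.09 with the control and 1.05 and 0.91 with the Ogdh hairpins (difference adjusted p = 5.38e-05). Tifab, an inhibitor of TRAF6 signalling, was at 137 and 307 CPM in clone 2 and 178 and 434 CPM in clone 7 at day 0 and at 412 and 404 CPM in clone 2 and 569 and 560.5 CPM in clone 7 at day 4 with the control (0.94 ± 0.08; adjusted p = 0.00215; 0.39 against replicate 2 alone, adjusted p = 0.0722), where the Ogdh hairpins gave -1.26 and -1.19 (difference -2.17 ± 0.10; adjusted p = 8.34e-06). Bach1 and Tifab were chosen after their values were seen.

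Within the G1/S list, the median was -0.07 with the control and -1.15 and -1.01 with the Ogdh hairpins. For Rrm2 the control gave -0.33 and the Ogdh hairpins -1.23 and -1.37 (difference -0.97 ± 0.09; adjusted p = 0.000136). Per2 rose in all 3 arms, by 0.65 with the control and 2.04 and 2.03 with the Ogdh hairpins (difference 1.38 ± 0.12; adjusted p = 9.23e-05). Fosb fell in all 3, with changes of -4.64, -2.53 and -1.64, and farther with the control (difference 2.56 ± 0.59; adjusted p = 0.00932).

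**Figure D5:**
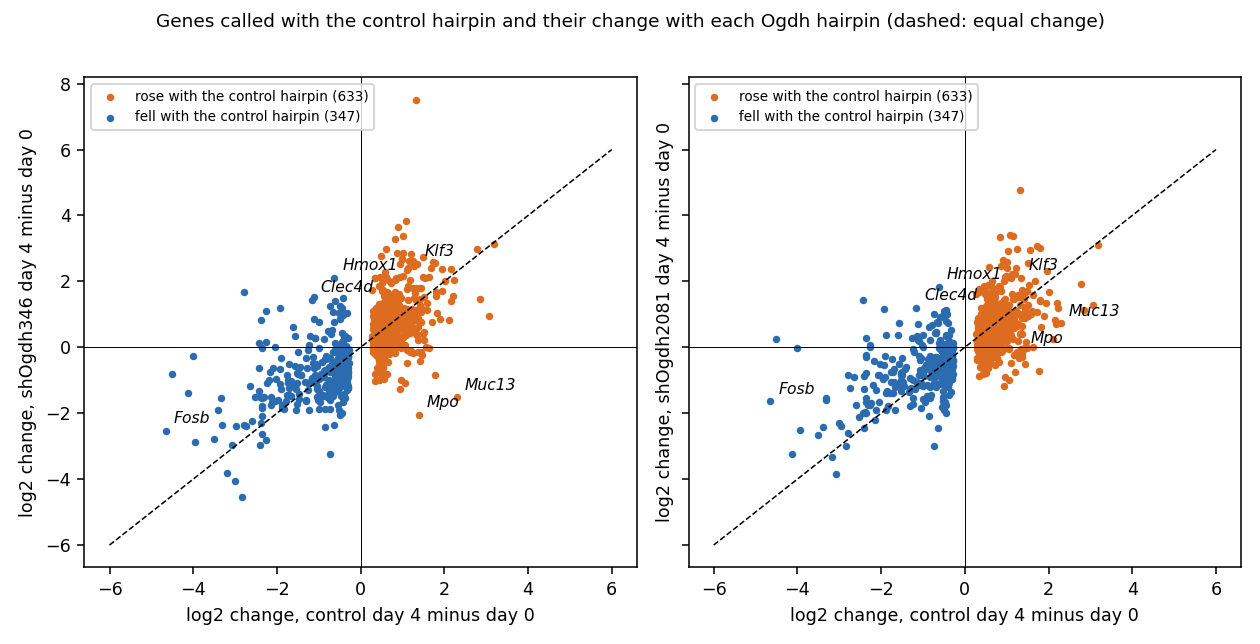
Log2 change at day 4 of the 980 genes called with the control hairpin (horizontal; orange, 633 that rose; blue, 347 that fell) against their change with shOgdh346 (left) and shOgdh2081 (right); the dashed line marks equal change. Most points lie in the quadrants of equal sign, while Clec4d and Hmox1 lie above 0 in both panels, and Muc13 lies below 0 with shOgdh346 alone.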

How the data were processed

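The authors deposited 1 table of read counts for 53465 Ensembl genes in 24 libraries of polyadenylated mouse RNA. The submitters' processing notes name Trimmomatic 0.36, FastQC 0.11.5, STAR 2.6.1a, featureCounts 1.6.3 and the builds mm10 and GRCm38. The labels' extract protocol instead names a human build, HTSeq and RPKM, which the whole-number mouse counts do not match. For strand setting, annotation release and reads with several matches, the setting was not given in the sources used here.

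Counts of a clone's 2 libraries from the same day were added, and these 12 sums were fitted with edgeR 4.0.16 (quasi-likelihood test, filterByExpr, TMM scaling) in R 4.3.3, with clone as block and a day 4 term per hairpin. This left 3 residual degrees of freedom. P-values were Benjamini-Hochberg adjusted over all 14249 genes, with a threshold of 0.05, and ± is the standard error of the log2 change. The procedure was tested on simulated data. Clone pairs the days because both come from the same isolate (correlation of clone deviations 0.838). p-values measure the spread between these samples only.

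Named genes were the 12 largest rises and falls of at least 5 CPM that moved alike in all 8 within-clone comparisons, up to 3 called members per list by p (the 2 smallest p where none was called), and Ogdh. Further list members, genes called against both day 0 replicates and genes opposite in the Ogdh arms were added after their values were seen. Some list members are not reported here. The members and lists were chosen with earlier results of these data known. Alternatives covered scaling, DESeq2 1.42.0, filters, models and left-out libraries.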

Additional observations from a re-analysis of the deposited data

Results flagged for a closer look

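In 6 of 208 gene and day groups tested, 1 library stood far from the other 3 of its day, where chance gives about 1 in 20. At day 4, Zfp94 was at 7.36 CPM in replicate 2 of clone 2, Srebf2, the sterol regulator, at 329 CPM in replicate 2 of clone 7, Klf3 at 25.2 CPM in replicate 1 of clone 7, and Cd74, the MHC class II chaperone, at 0 CPM in replicate 1 of clone 2. The 4 day 4 libraries together held 3 counts of Cd74, so its flag rests on very few reads. At day 0, replicate 2 of clone 7 stood apart for Lars2 at 149 CPM and for Per3 at 17.9 CPM.

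For 16 genes among the largest changes, the change with the Ogdh hairpins differed from that with the control by edgeR's quasi-likelihood test at an adjusted p under 0.05. Given as Ogdh hairpins minus control on the log2 scale, the difference was negative for genes that rose with the control, at -2.70 for Muc13, -2.46 for Mpo, -1.64 for Zfp759, -1.63 for Trim43c, -1.54 for Rn7sk, -0.98 for Zfp94 and -0.84 for Lars2. The exception was Klf3, at 0.98, which rose farther with the Ogdh hairpins. These genes were chosen by the size of their control change, which is subtracted in the difference. The choice itself therefore favours negative differences for rises and positive ones for falls, and no conclusion is drawn from the signs. Genes that fell with the control had positive differences, of 0.64 for Fam43a, 1.00 for Il20rb, 1.05 for Hist1h1c, 1.11 for Acsbg1, 1.31 for Cpeb2, 2.05 for Klf2, 2.46 for Clec4d and 2.56 for Fosb. Without the second day 4 library of clone 2, the differences of Rn7sk and Lars2 were -0.71 (adjusted p = 0.3) and -0.29 (adjusted p = 0.059).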

How the results depend on the processing

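Scaling, DESeq2 and a minimum of 5 CPM left both counts within 1.5 times of 633 rises and 347 falls (596 and 350 with RLE, 438 and 290 with DESeq2, 509 and 272 with the minimum). The counts moved to 1053 and 666 with no filter on low counts, 2574 and 2554 when the 4 control sums were fitted alone, and 1473 and 1292 with 24 libraries and clone as block. With 24 libraries and clone and replicate block they were 1815 and 1624, and with no replicate block (clone left out of the model) 99 and 48. The replicate numbers did not pair the days, with correlations of -0.0177 and -0.0117. Against day 0 replicate 1 alone the counts were 1251 and 727, against replicate 2 alone 84 and 38, and 76 and 33 for genes called in both, an alternative chosen after seeing the data. Without clone 2 they were 10 and 7, and without clone 7 they were 6 and 2. Leaving out 1 control library at a time gave 125 to 901 rises and 64 to 575 falls. The cause of these shifts was not tested.

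Among changes of named genes with the control, 1775 values kept their side of the threshold, 392 were no longer called and 90 became called. The 1775 include uncalled values that changed sign, such as Ogdh, at -0.02 with both replicates and 0.03 against day 0 replicate 1 alone. Where either fit called the gene, 1 value reversed its sign, that of Atf3, at 0.29 against day 0 replicate 2 alone. Against replicate 2 alone, 53 named genes were no longer called and 1, Atf3, reversed. The other 47 with a value kept their side of the threshold, and some of these, such as Ogdh, had not been called with both replicates. With 2 clones, single adjusted p-values near 0.05 are the least firm, and levels under 1 CPM rest on few counts a library.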
